A study of Mus musculus with 24 samples.

Results

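The cytosolic ribosomal protein genes were examined in neural stem and progenitor cells (NSPCs) with 2, 1 or no intact copies of Kat6a, the gene of a histone acetyltransferase. The members were all genes whose symbol has the form of a large subunit (Rpl) or small subunit (Rps) ribosomal protein, plus Rplp0, Rplp1, Rplp2 and Rpsa, without the symbols that mark pseudogenes. This gave 86 of 26411 genes in the count files. They were read as 77 core members, 46 of the large and 31 of the small subunit, and 9 paralog variants whose symbols add l, al or l1 to that of another gene (Rpl32l, Rpl10l, Rpl36al, Rpl39l, Rpl3l, Rpl7l1, Rpl22l1, Rps4l and Rps27l). The cells came from C57BL/6 mouse embryos at E12.5, from the dorsal telencephalon, which forms the cerebral cortex, and each library was made from the isolate of 1 embryo. The 3 genotypes were wild type (Kat6a+/+), heterozygous (Kat6a+/–) and homozygous mutant (Kat6a–/–), from crosses of heterozygous parents, and the mutant allele is a constitutive deletion of exons that ends the reading frame within the catalytic domain, so it was absent or present in every cell of the embryo. Proliferating NSPCs had grown for 3 days in medium with FGF2 and EGF, and differentiating NSPCs for 3 days on a coated surface in medium with serum. Each of the 6 combinations of genotype and condition had 4 libraries, numbered here as replicates 1 to 4. RNA of proliferating and differentiating cells was purified with different kits, so the kit and the condition cannot be told apart.

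A cytosolic ribosome holds 1 copy of most of these proteins, built around ribosomal RNA, and the proteins are needed in matched amounts. In mammals most of their mRNAs begin with a C followed by a run of pyrimidines, the terminal oligopyrimidine or TOP motif. The growth-sensing kinase complex mTORC1 controls the translation of TOP mRNAs, with LARP1 as a protein that binds the motif, and MYC family factors promote the transcription of ribosomal protein genes and of ribosomal RNA. Dividing progenitors are rich in ribosomes, and the ribosomal protein mRNAs fall in many lineages when cells stop dividing. Free Rpl5 and Rpl11 bind MDM2 and thereby stabilise p53, which links ribosome assembly to cell cycle arrest.

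Start sites are shown for the members on which the results below turn, because a pyrimidine run at the start is the sequence feature that ribosomal protein mRNAs are known for. Each line holds 10 bases before and 20 bases from the RefSeq transcription start, 5′ to 3′ on the strand of the gene, and capitals mark a run of at least 5 C or T that opens with a C within 5 bases of the start. Rpl35, Rps10 and Rps7 had the 3 largest falls that passed the test among core genes in proliferating Kat6a–/– cells, Rpl12 and Rps2 the largest difference between conditions in the effect of the genotype, Rpl10 the largest fall and Rpl38 the only rise on differentiation, and the last 4 are variants. Rps7, Rpl10, Rpl7l1 and Rpl36al hold no such run, and the other 7 do in the window shown. Rps27l has another RefSeq start, with its window at chr9:66853685-66853714, where the run is only 2 bases. The bases are those of RefSeq on GRCm38.p6, and the positions were found by an exact match to GRCm39.
Rpl35 (chr2:38895124-38895153, minus strand): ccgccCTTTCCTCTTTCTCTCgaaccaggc
Rps10 (chr17:27854199-27854228, minus strand): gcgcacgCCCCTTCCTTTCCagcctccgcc
Rps7 (chr12:28685933-28685962, minus strand): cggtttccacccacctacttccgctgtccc
Rpl12 (chr2:32851714-32851743, plus strand): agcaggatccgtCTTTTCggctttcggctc
Rps2 (chr17:24939027-24939056, plus strand): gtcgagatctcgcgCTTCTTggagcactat
Rpl10 (chrX:73314412-73314441, plus strand): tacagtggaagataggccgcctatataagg
Rpl38 (chr11:114559396-114559425, plus strand): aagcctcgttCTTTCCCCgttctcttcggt
Rps27l (chr9:66853358-66853387, plus strand): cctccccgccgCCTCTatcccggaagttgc
Rpl22l1 (chr3:28859647-28859676, plus strand): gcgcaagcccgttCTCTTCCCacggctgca
Rpl7l1 (chr17:47093563-47093592, minus strand): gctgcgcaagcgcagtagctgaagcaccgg
Rpl36al (chr12:69230822-69230851, minus strand): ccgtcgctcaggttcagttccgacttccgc

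RefSeq start windows were found for 65 of the 86 members. A run of at least 5 pyrimidines stood at the start in 29 of 67 windows of core members (43.3%), in 3 of 10 windows of variants (30%) and in 3951 of 21263 windows of all protein-coding genes (18.6%). For a run of at least 8 the shares were 29.9%, 20% and 4.32%. In the whole window of 300 bases, 250 before and 50 after the start, searched on both strands, CCGGAAG, the core of sites bound by ETS factors, occurred in 37.3% of core windows against 11.6% of all windows. The E-box CACGTG, which MYC can bind, occurred in 11.9% against 7.84%, AAGATGGCG, the core of the YY1 motif, in 7.46% against 1.83%, and TATAAA in 8.96% against 12.6%. CCGGAAG ends in the letters with which AAGATGGCG opens, so matches of this pair can share bases, and a match in these windows is a description of sequence.

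The 24 libraries held 7826660 to 40838203 counts, and every pair of replicates of a group differed by more than counting noise. Kat6a itself read 160 to 409 CPM (counts scaled to the size of the library), and because the counts are summed over the whole gene they cannot show the deleted exons: in Kat6a–/– against Kat6a+/+ cells it differed by -0.13 in log2 in proliferating cells (adjusted p = 0.1) and fell by 0.69 in differentiating cells (adjusted p = 3.33e-05). Of 8 neural progenitor markers 7 were present, with a summed level of 5180 to 11800 CPM led by Vim, and Emx1 was under 1 CPM. The summed microglial and erythroid markers reached at most 0.783 and 1.01 CPM. In proliferating cells the summed astrocyte markers ran from 607 to 762 CPM in the Kat6a+/+ and from 1030 to 1810 CPM in the Kat6a–/– libraries. Slc1a3 was the highest of these 5 markers, and 2 of them averaged under 1 CPM in Kat6a+/+ and 1 in Kat6a–/–, so the sum does not count astrocytes. In differentiating Kat6a–/– cells the fibroblast markers, led by Col1a1, ran from 33 to 261 CPM against 23.4 to 57.7 CPM in Kat6a+/+. The oligodendrocyte lineage markers, led by Olig1, ran there from 624 to 1140 CPM against 1170 to 1370 CPM. The neuron markers, led by Map2, ran there from 459 to 771 CPM against 525 to 696 CPM. The endothelial markers, led by Kdr and with 4 of 5 under 1 CPM, ran there from 9.7 to 36.8 CPM against 46.4 to 72.8 CPM. The part of the cell mixture in the results was not tested, and in bulk RNA fewer cells of a type and less RNA per cell cannot be told apart.

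In proliferating NSPCs the 77 core genes took 1.29% ± 0.082 (SD, n = 4) of all counts in Kat6a+/+, 1.22% ± 0.191 (SD, n = 4) in Kat6a+/– and 0.941% ± 0.167 (SD, n = 4) in Kat6a–/– libraries. The Kat6a–/– libraries ranged from 0.7% to 1.06% and lay below all Kat6a+/+ libraries, which ranged from 1.18% to 1.36%. Both subunits took part: the large subunit held 0.694%, 0.66% and 0.516% of counts in the 3 genotypes and the small subunit 0.601%, 0.558% and 0.425%. In differentiating NSPCs the core share was 0.62% ± 0.0615 (SD, n = 4), 0.579% ± 0.0658 (SD, n = 4) and 0.572% ± 0.0705 (SD, n = 4), and the genotypes overlapped. The 9 variants together held 0.0362%, 0.0372% and 0.0319% of counts in proliferating and 0.0235%, 0.0219% and 0.0229% in differentiating cells. In proliferating cells, replicate 4 of Kat6a–/– and replicate 4 of Kat6a+/–, both of litter 5063, which has no Kat6a+/+ library, had the lowest shares of their groups. Of genes that mark dividing cells, Mki67 read 975, 894, 998 and 747 CPM in proliferating Kat6a+/+ against 925, 821, 799 and 486 CPM in Kat6a–/– libraries, and Top2a read 897, 843, 920 and 845 CPM against 809, 795, 796 and 461 CPM. Kat6a–/– replicate 4 was the lowest of the 12 proliferating libraries for both, and the genotypes overlapped for Mki67 but not for Top2a. In differentiating cells Mki67 read 246, 216, 269 and 145 CPM in Kat6a+/+ against 19.7, 8.87, 19.2 and 49 CPM in Kat6a–/– libraries, without overlap. The part of cell division in the levels of ribosomal protein mRNAs was not tested.

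**Figure D1:**
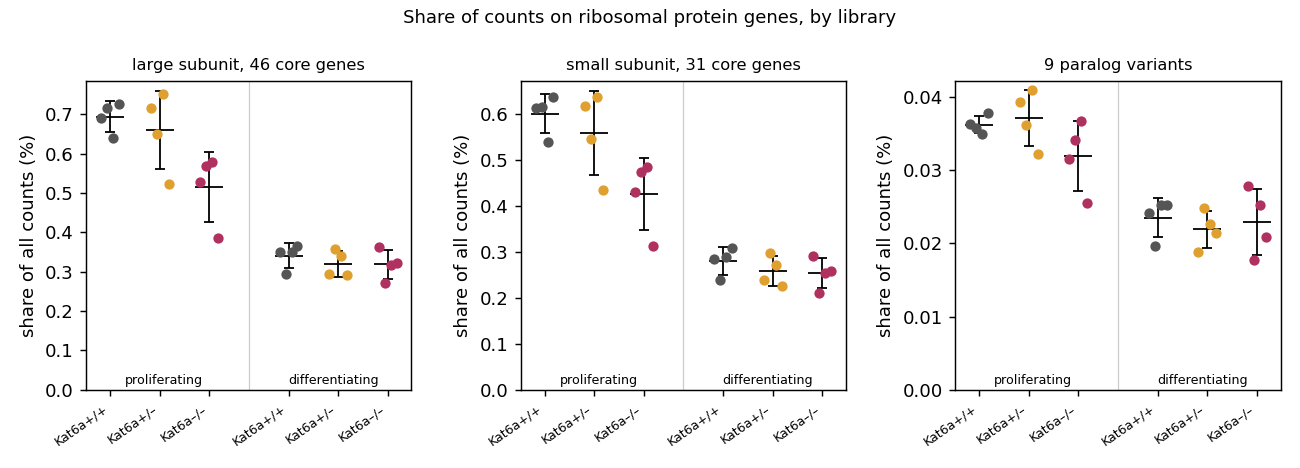
Share of all counts, in percent, on the 46 core genes of the large subunit, the 31 of the small subunit and the 9 paralog variants. Each point is 1 library, the line is the mean and the bars are 1 SD (n = 4); in proliferating cells every Kat6a–/– library lies below every Kat6a+/+ library for both subunits, and in differentiating cells the genotypes overlap.

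Ribosomal protein mRNAs were lower in proliferating Kat6a–/– than in Kat6a+/+ NSPCs across both subunits. The fit (limma on log2 CPM, adjusted p by Benjamini-Hochberg over all genes tested, threshold 0.05) tested 82 members, all 77 core genes and 5 variants: 39 fell and 0 rose, where 13.8% of all genes tested fell and 16.2% rose. These were 22 of 46 large subunit genes, 15 of 31 small subunit genes and the variants Rpl32l and Rpl7l1. The core median was -0.40 in log2, -0.40 for the large and -0.41 for the small subunit, beside 0 over all genes tested, and 76 of 77 core estimates were below 0. In 50 of the tested members all 4 Kat6a–/– libraries lay below all 4 Kat6a+/+ libraries, which held for 17.6% of all genes. Without litter 5063, left out after its low values were seen, 40 members fell, 1 rose (Rps27l) and the core median was -0.30. The count was 23 without Kat6a–/– replicate 4 and 24 without Kat6a+/+ replicate 4. Within the 2 litters that held both genotypes the core median difference was -0.23 in litter 4633 and -0.35 in litter 4746. Over all genes tested it was -0.03 and 0. In each litter 72 of 77 core genes were below 0. Each litter had 1 Kat6a+/+ library, set against 2 Kat6a–/– libraries in litter 4633 and 1 in litter 4746. Genes read in the same libraries are not independent, so these counts are a description.

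**Figure D2:**
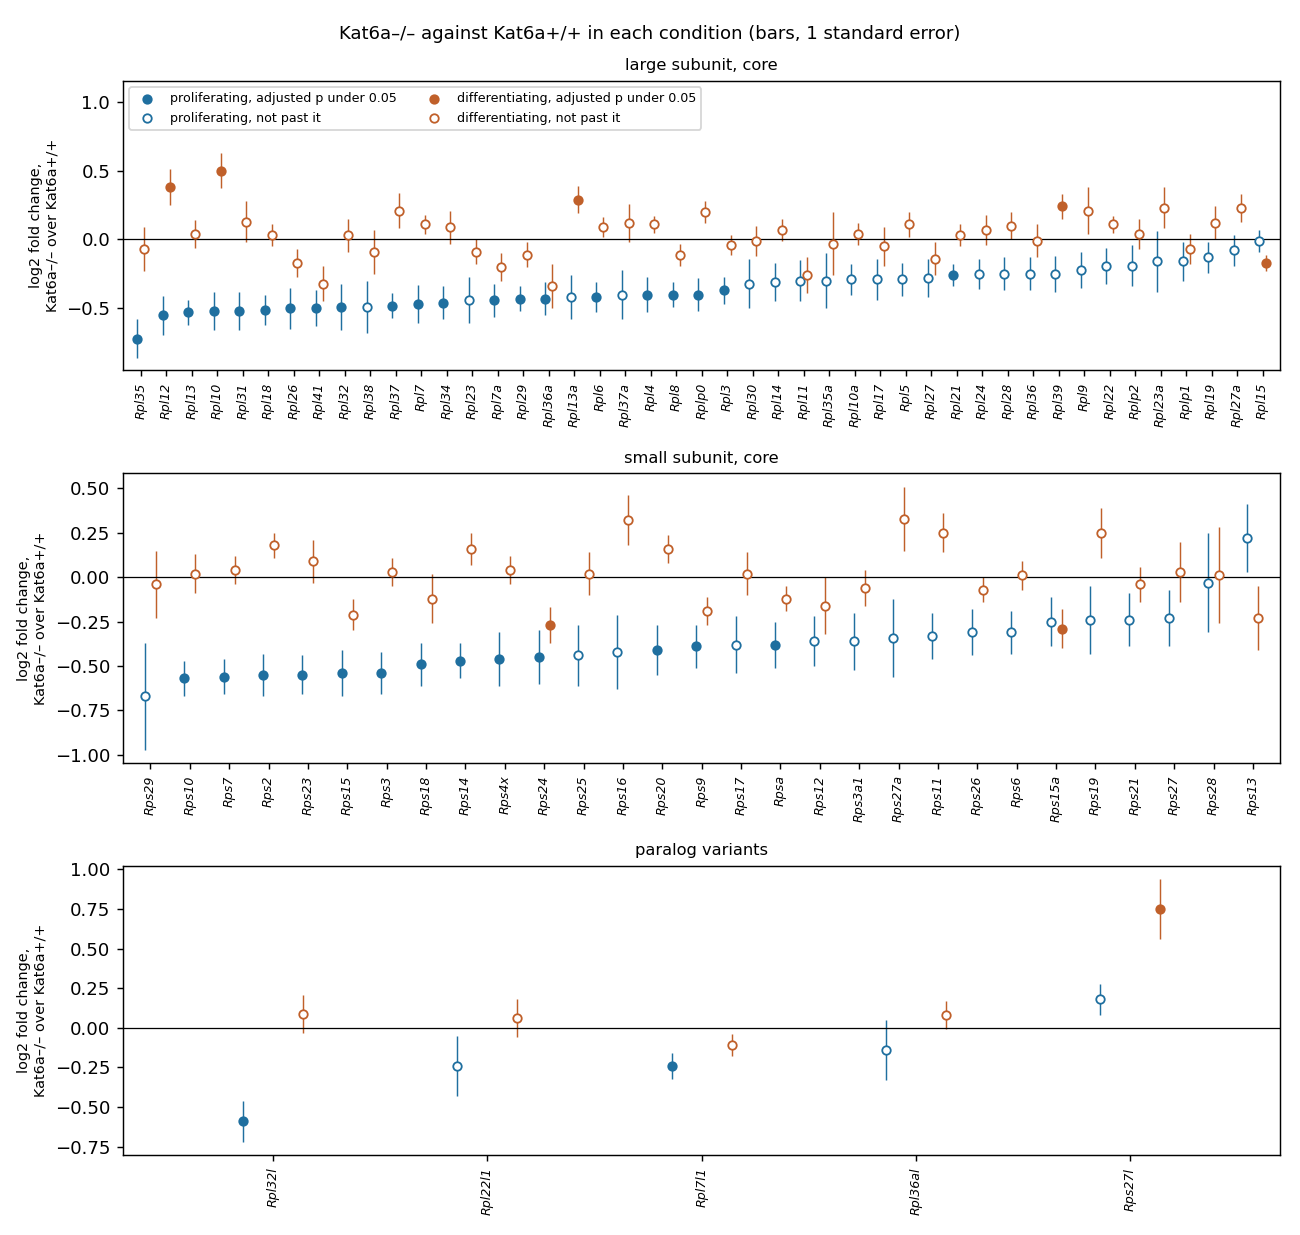
Log2 fold change of Kat6a–/– over Kat6a+/+ for 79 tested members, ordered by the estimate in proliferating cells (blue) with the estimate in differentiating cells beside it (orange); bars are 1 standard error and filled points passed an adjusted p of 0.05. The blue points lie below 0 for 73 of the 74 core genes drawn, and the orange points scatter around 0.

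Rpl35, a large subunit protein at the exit of the nascent peptide tunnel, had the largest fall. It read 20.3, 24, 20.3 and 24.9 CPM in proliferating Kat6a+/+ libraries, 21.1, 23.9, 21 and 17 CPM in the Kat6a+/–, and 15.2, 12.6, 14.5 and 9.77 CPM in the Kat6a–/–. All 4 Kat6a–/– libraries lay below every library of the other 2 genotypes, and the fall was 0.72 in log2 (SE 0.14, adjusted p = 0.00238). Rps10, a protein of the head of the small subunit, read 110, 103, 97.1 and 91.5 CPM in the Kat6a+/+ and 69.3, 69.3, 72.3 and 51.2 CPM in the Kat6a–/– libraries, and fell by 0.57 (SE 0.1, adjusted p = 0.000972). Rps7, another small subunit protein, read 150, 142, 126 and 134 CPM against 102, 99.4, 91.7 and 67.4 CPM and fell by 0.56 (SE 0.1, adjusted p = 0.00172). The libraries of the 2 genotypes did not overlap for either gene, and replicate 4 was the lowest Kat6a–/– library for both. Rps23, which lines the decoding centre, read 52.4, 50.2, 52 and 58.1 CPM against 37.1, 38.1, 42.7 and 26.1 CPM, without overlap, and fell by 0.55 (SE 0.11, adjusted p = 0.00259).

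The stalk of the large subunit, which recruits elongation factors, is formed by Rplp0, Rplp1 and Rplp2. Rplp0 read 880, 862, 777 and 868 CPM in the Kat6a+/+ and 638, 675, 700 and 437 CPM in the Kat6a–/– proliferating libraries and fell by 0.40 (SE 0.12, adjusted p = 0.0267). For Rplp1 and Rplp2, the 2 acidic proteins bound to it, the estimates were -0.16 (SE 0.14, adjusted p = 0.39) and -0.19 (SE 0.15, adjusted p = 0.358), and the libraries of the genotypes overlapped. Rpl5 and Rpl11, which bind MDM2 when free, gave estimates of -0.29 (SE 0.12, adjusted p = 0.0801) and -0.30 (SE 0.15, adjusted p = 0.142) and did not pass the test. Rpl11 read 23, 29, 20.4 and 23.7 CPM against 23.1, 18, 18 and 14.5 CPM, so that Kat6a–/– replicate 1 lay among the Kat6a+/+ libraries.

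Among small subunit members with known roles, Rps14, a protein of the platform, read 320, 324, 275 and 298 CPM in the Kat6a+/+ and 201, 237, 226 and 170 CPM in the Kat6a–/– libraries and fell by 0.47 (SE 0.1, adjusted p = 0.00502). Rpsa, also known as the laminin receptor precursor, fell by 0.38 (SE 0.13, adjusted p = 0.0449). The other 3 did not pass: Rps6, the substrate of the S6 kinases, had an estimate of -0.31 (SE 0.12, adjusted p = 0.069), Rps19, mutated in Diamond-Blackfan anaemia, of -0.24 (SE 0.19, adjusted p = 0.343), and Rps27a, made as a fusion with ubiquitin, of -0.34 (SE 0.22, adjusted p = 0.252). Rpl10, an X-linked protein that joins the large subunit late, read 58.4, 55.9, 63.7 and 49.2 CPM against 43.4, 41.1, 41.1 and 31 CPM, without overlap, and fell by 0.52 (SE 0.14, adjusted p = 0.0132). It was 1 of 4 core genes of the X chromosome, of which 3 fell. For Rpl38, known for patterning of the axial skeleton, the estimate was -0.49 (SE 0.19, adjusted p = 0.0658), from 5.18, 5.71, 4.83 and 6.85 CPM to 4.3, 3.35, 3.61 and 3.69 CPM. Its Kat6a–/– libraries all lay below the Kat6a+/+ libraries. Rps13 was the only core gene with an estimate above 0 (0.22, SE 0.19, adjusted p = 0.397), and Rpl15 was nearest to 0 (-0.01, SE 0.08, adjusted p = 0.959).

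**Figure D3:**
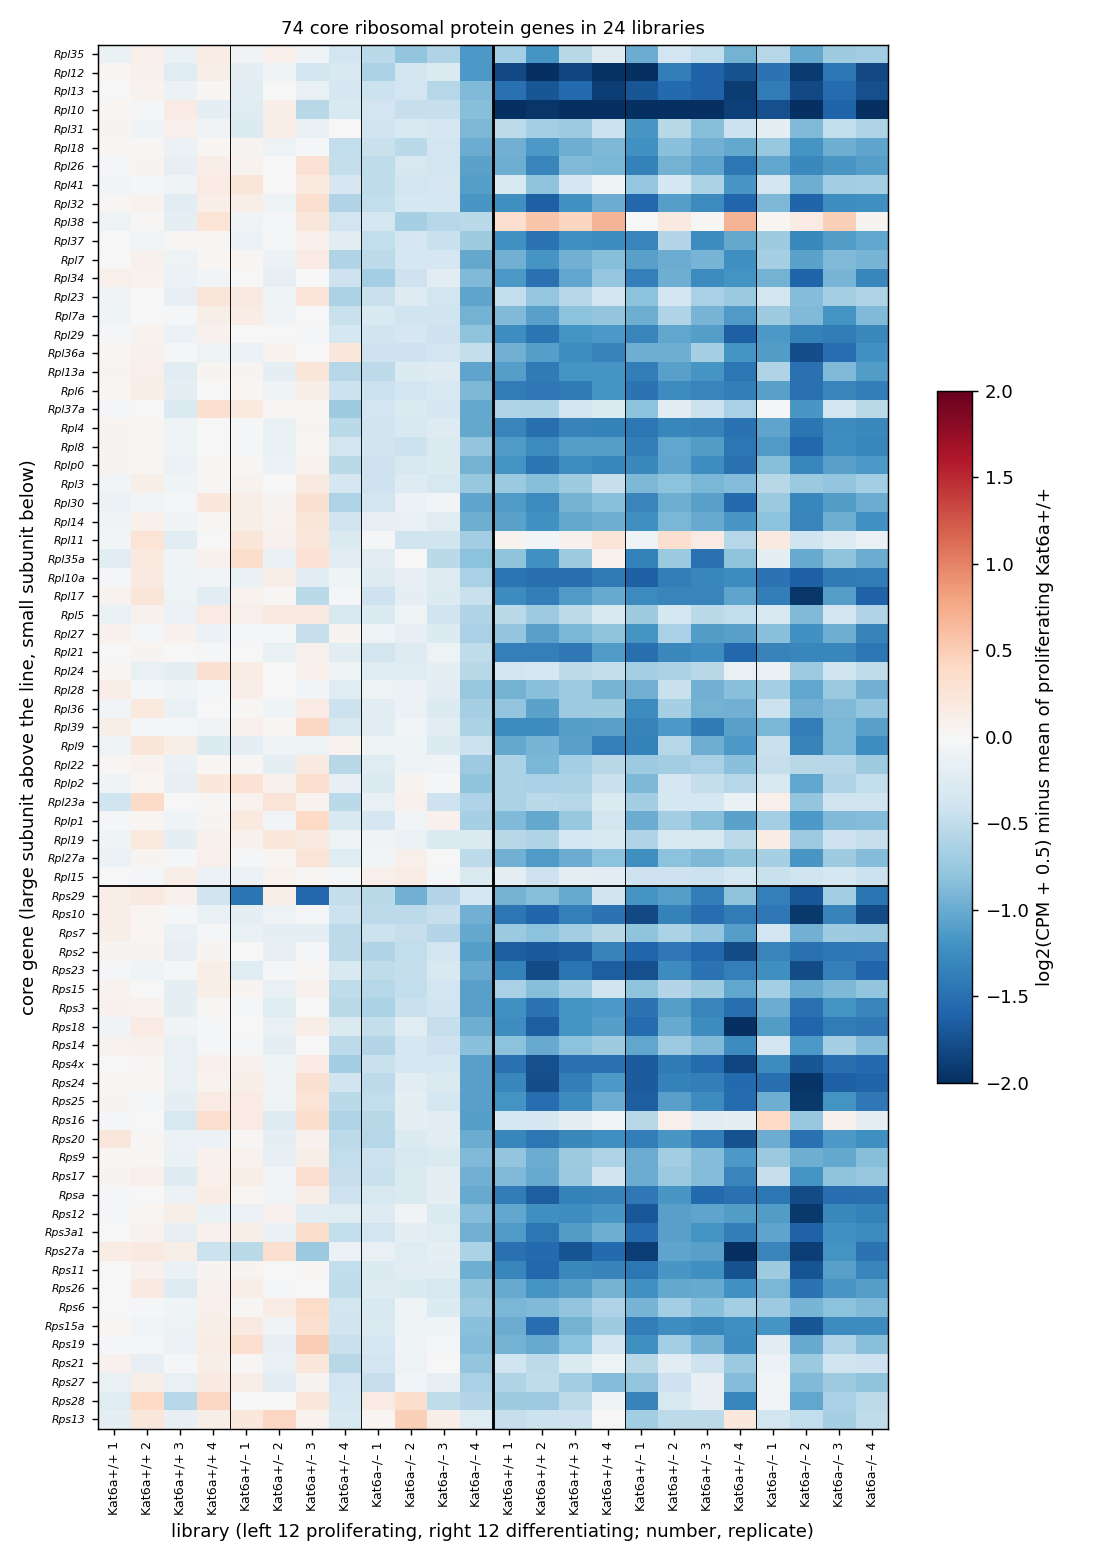
The values of 74 core genes (rows) in the 24 libraries (columns), as log2(CPM + 0.5) minus the mean of the 4 proliferating Kat6a+/+ libraries; blue is lower, red is higher and the scale ends at -2 and 2. Among the left 12 columns, proliferating Kat6a–/– replicate 4 is below 0 for all 74 genes drawn, and in the right 12 columns most rows are below 0, with Rpl38 above 0 in Kat6a+/+.

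With 1 intact copy of Kat6a no change was detected. In proliferating Kat6a+/– against Kat6a+/+ cells limma called 0 of 82 members, with 3 at an unadjusted p under 0.05, and edgeR and DESeq2 called 0, where 0% of all genes tested were called. The core median was -0.02, beside 0 over all genes. The largest core estimate on either side was that of Rps29, a small zinc finger protein of the small subunit, which read 25.7, 26.5, 24.9 and 17.5 CPM in the Kat6a+/+ and 8.13, 25.5, 7.51 and 16.7 CPM in the Kat6a+/– libraries. Its Kat6a+/– replicates 1 and 3 stood far below the other 2, of which replicate 2 lay among the Kat6a+/+ libraries and replicate 4 just below the lowest of them. The estimate was -1.02 (SE 0.29, adjusted p = 0.442), and the gene is named because its values were seen to lie apart. Directly compared, Kat6a–/– against Kat6a+/– cells gave 30 falls, 29 of them core genes, and 0 rises, with a core median of -0.39; 6.3% of all genes fell and 8.47% rose. The Kat6a–/– libraries are the same as in the comparison with Kat6a+/+. The count of 30 depended on single libraries: it was 1 without Kat6a–/– replicate 4, 16 without Kat6a–/– replicate 1, 7, 17 and 19 without Kat6a+/– replicates 1, 2 and 3, and 47 without Kat6a+/– replicate 4.

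In differentiating NSPCs the core genes did not move together. Of 82 members tested in Kat6a–/– against Kat6a+/+ cells, 6 rose and 4 fell, where 26.7% of all genes rose and 27.7% fell. The core median was 0.03, beside -0.02 over all genes, with 0.04 for the large and 0.02 for the small subunit, and 31 core estimates lay below 0. In 0 members did the libraries of the 2 genotypes separate, which happened for 12.2% of all genes above and 14.7% below. Within litters 4633 and 4746 the core median difference was -0.04 and -0.14, with 45 and 55 of 77 core genes below 0. Over all genes tested it was 0.01 and -0.04. Here, too, each litter had 1 Kat6a+/+ library, set against 2 and 1 Kat6a–/– libraries. The calls rest on the library weights of this fit, in which Kat6a–/– replicate 3 had 69% of the weight given to its genotype and replicate 2 had 4.22%. No member was called without Kat6a–/– replicate 1 or without Kat6a–/– replicate 3. Without Kat6a–/– replicate 2 the count was 27 and without replicate 4 it was 21. It was 4 without Kat6a+/+ replicate 1 or 3. Directions and shares of all genes called are not given for these fits, so the counts show only that the calls depend on single libraries. With library totals in place of TMM scaling, which moved the median of all genes to -0.17, 19 members fell and 2 rose.

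Rpl10 had the largest rise among core genes in differentiating cells. It read 12.7, 14.3, 11 and 11.2 CPM in Kat6a+/+, 10.5, 12.7, 13.5 and 15.2 CPM in the Kat6a+/– and 16.4, 10.1, 18.3 and 13.6 CPM in the Kat6a–/– libraries, a rise of 0.50 in log2 (SE 0.13, adjusted p = 0.0071). Kat6a–/– replicates 1 and 3 stood above all Kat6a+/+ libraries and replicate 2 below them. Rpl12, at the base of the stalk, read 11.6, 9.23, 11.4 and 10.3 CPM against 14.8, 10.8, 15.1 and 11.6 CPM and rose by 0.38 (SE 0.13, adjusted p = 0.0291). Rpl13a and the X-linked Rpl39, which lines the peptide tunnel, rose by 0.29 (SE 0.1, adjusted p = 0.0249) and 0.24 (SE 0.09, adjusted p = 0.0423). In Rpl12, Rpl13a and Rpl39, too, Kat6a–/– replicates 1 and 3 were the highest of the Kat6a+/+ and Kat6a–/– libraries. For Rpl12, Kat6a+/– replicate 2 was higher still, at 15.7 CPM. Among the falls were those of Rps15a (-0.29, adjusted p = 0.042), Rps24 (-0.27, adjusted p = 0.0315) and Rpl15 (-0.17, adjusted p = 0.022). None of the 9 core calls passed the test with edgeR or DESeq2, with litter as a fixed term, or without library weights.

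In differentiating Kat6a+/– against Kat6a+/+ cells limma called 0 members, with 10 at an unadjusted p under 0.05, and edgeR and DESeq2 called 0, where 0% of all genes were called. The core median was -0.13, beside -0.01 over all genes, and 71 of 77 core estimates were below 0. Against Kat6a+/–, Kat6a–/– cells had 8 members higher and 1 lower, where 19.1% of all genes rose and 18.5% fell, with a core median of 0.17. With edgeR, DESeq2, litter as a fixed term or no library weights 0 members were called, and the core median was 0.03 without weights and -0.03 without Kat6a–/– replicate 1. The count was 0 without Kat6a–/– replicate 1 or 3, 20 and 18 without Kat6a–/– replicates 2 and 4, and 1, 26, 23 and 4 without Kat6a+/– replicates 1, 2, 3 and 4.

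The paralog variants did not follow 1 pattern. Rps27l is given beside its parent Rps27, and the difference between them was not tested. Rps27l is a known transcriptional target of p53. In proliferating cells it read 95.6, 82.1, 89.3 and 97 CPM in the Kat6a+/+ and 93.5, 105, 122 and 79.4 CPM in the Kat6a–/– libraries, an estimate of 0.18 (SE 0.1, adjusted p = 0.2), and without litter 5063 it was 0.27 and passed. In differentiating cells it read 55, 39.7, 55.9 and 53 CPM in Kat6a+/+, 34.8, 64.5, 43.1 and 47.6 CPM in the Kat6a+/– and 121, 43.5, 94.1 and 52.7 CPM in the Kat6a–/– libraries. Kat6a–/– replicates 1 and 3 stood above every other differentiating library, and replicates 2 and 4 within the Kat6a+/+ range. The rise was 0.75 in log2 (SE 0.19, adjusted p = 0.00515) against Kat6a+/+, the largest of all members, and 1.11 (SE 0.22, adjusted p = 0.0028) against Kat6a+/–. The call against Kat6a+/– was lost with edgeR, DESeq2, litter as a fixed term or no library weights, and without Kat6a–/– replicate 1 or 3. The call against Kat6a+/+ was lost without library weights (0.50), with edgeR (0.62), DESeq2 (0.63) or litter as a fixed term (0.74), and without Kat6a–/– replicate 1 (0.23) or 3 (0.21).

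Rps27, the parent, read 9.56, 11.5, 9.56 and 12.2 CPM in proliferating Kat6a+/+ and 7.59, 10.2, 9.42 and 6.58 CPM in the Kat6a–/– libraries, and its estimates were -0.23 (SE 0.16, adjusted p = 0.291) there and 0.03 (SE 0.17, adjusted p = 0.911) in differentiating cells. 2 other genes known to be induced by p53 had the same 2 libraries on top. Cdkn1a, a cell cycle inhibitor, read 93.6, 191, 104 and 79.1 CPM in differentiating Kat6a+/+ and 953, 233, 596 and 239 CPM in the Kat6a–/– libraries, a rise of 2.48 (SE 0.33, adjusted p = 8.02e-05). Mdm2, the ubiquitin ligase of p53, read 73.5, 83.1, 66.2 and 66.1 CPM against 201, 75.8, 148 and 89.2 CPM and rose by 1.03 (SE 0.15, adjusted p = 0.00016). The Kat6a–/– libraries of Cdkn1a all lay above the Kat6a+/+ libraries, whereas those of Mdm2 overlapped through replicate 2. The division was not limited to these genes. Among the Kat6a–/– libraries, replicates 1 and 3 were also the highest for Ccnd1, at 499 and 262 CPM against 20.5 and 77.7 CPM. The same held for Eef1a1, Eif4ebp1 and Trp53, but not for Mki67 or Top2a. Whether the levels of any of these genes have a part in that of Rps27l was not tested.

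Rpl32l fell with its parent in proliferating cells: it read 57.8, 57.9, 48.5 and 44.1 CPM in the Kat6a+/+ and 35.2, 33.2, 37.5 and 28.3 CPM in the Kat6a–/– libraries, without overlap, a fall of 0.59 (SE 0.13, adjusted p = 0.00466), beside a fall of 0.49 (SE 0.17, adjusted p = 0.045) for Rpl32. Rpl7l1, whose yeast counterpart serves in ribosome assembly, read 146, 149, 143 and 141 CPM against 125, 119, 132 and 95.9 CPM and fell by 0.24 (SE 0.08, adjusted p = 0.0324), beside a fall of 0.47 (SE 0.14, adjusted p = 0.0217) for Rpl7. Rpl22l1 read 32.8, 34.2, 36 and 43.1 CPM against 29.7, 39, 32.4 and 19.1 CPM, and neither it (-0.24, SE 0.19, adjusted p = 0.344) nor Rpl22 (-0.19, SE 0.13, adjusted p = 0.289) passed the test. Rpl36al overlapped between the genotypes (-0.14, SE 0.19, adjusted p = 0.612), while its X-linked parent Rpl36a read 12.2, 12.7, 11.7 and 11 CPM against 8.83, 8.76, 8.98 and 8.38 CPM and fell by 0.43 (SE 0.12, adjusted p = 0.0133). Differences between a variant and its parent were not tested.

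The other 4 variants were not tested. Rpl10l, a retrogene used in the testis, had 0 counts in all 24 libraries, Rpl39l, also of the testis, had 1 count in 1 library, and Rpl3l, the striated muscle form of Rpl3, had 0 to 5 counts per library. Rps4l is annotated as a transcribed pseudogene and held 7 to 125 counts per library. Their parents Rpl39, Rpl3 and Rps4x read 36.5, 147 and 387 CPM on average in proliferating Kat6a+/+ cells, of which Rpl3 and Rps4x fell in Kat6a–/– cells, by 0.37 (SE 0.1, adjusted p = 0.0156) and 0.46 (SE 0.15, adjusted p = 0.0381).

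**Figure D4:**
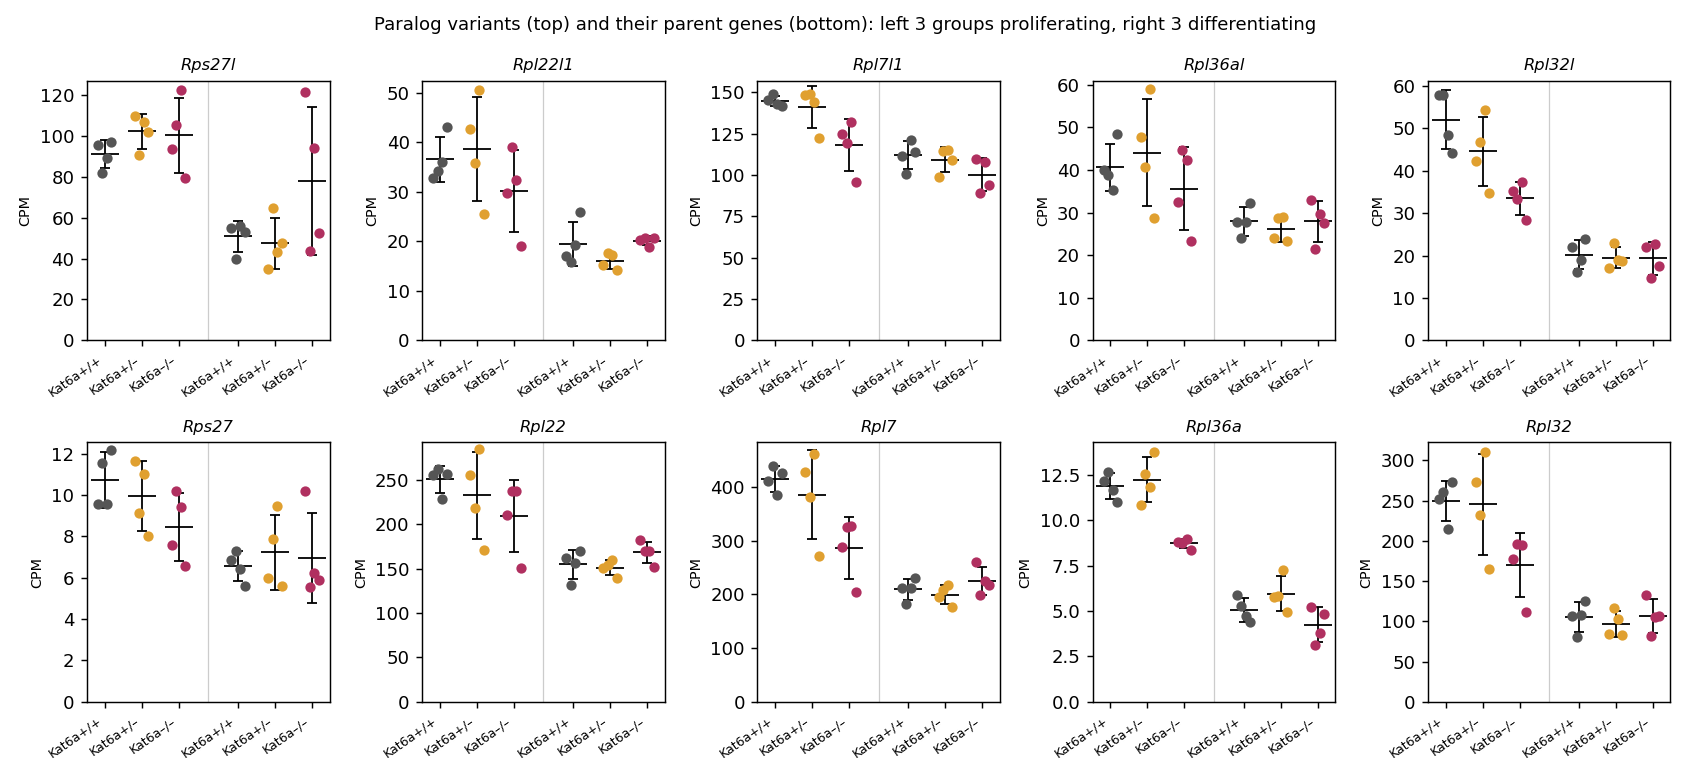
CPM of 5 paralog variants (top row) and their parent genes (bottom row) in every library, grouped by genotype, with proliferating cells on the left and differentiating cells on the right of each panel; lines are means and bars 1 SD (n = 4). In differentiating Kat6a–/– cells Rps27l has 2 libraries near 100 CPM or above and 2 at the level of Kat6a+/+, while Rps27 shows no such division into pairs.

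Most ribosomal protein mRNAs were lower in differentiating than in proliferating Kat6a+/+ cells. In a fit of all 24 libraries, 74 of 82 members fell and 1 rose between proliferating and differentiating Kat6a+/+ cells, where 36.2% of all genes fell and 36.7% rose. The core median was -1.03, beside 0.02 over all genes, -0.99 for the large and -1.17 for the small subunit. All 5 tested variants were among the falls, with a median of -0.84. The same isolate label occurred in both conditions for 6 of 12 embryos, and the fit allowed for litter but not for embryo. With the embryo label as a random block in place of litter, 74 members fell and 1 rose. Litters 4346 of proliferating and 4364 of differentiating cells differ only in the order of their digits and were kept as labelled, so that 1 more embryo may be shared.

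Rpl10 fell the most, from 58.4, 55.9, 63.7 and 49.2 CPM to 12.7, 14.3, 11 and 11.2 CPM, by 2.23 in log2 (SE 0.16, adjusted p = 1.85e-10), or 4.68-fold. Rpl12 fell by 1.99 (SE 0.16, adjusted p = 4.88e-10), Rps27a by 1.70 (SE 0.22, adjusted p = 7.65e-07) and Rpl13 by 1.68 (SE 0.11, adjusted p = 4.25e-11). Rpl38 was the 1 member that rose, from 5.18, 5.71, 4.83 and 6.85 CPM to 7.21, 8.46, 7.67 and 9.3 CPM, by 0.59 (SE 0.15, adjusted p = 0.00143), and its conditions did not overlap. Rpl11 stayed near its level, at 23, 29, 20.4 and 23.7 CPM and then 24.9, 22.8, 25.2 and 28.6 CPM, with an estimate of 0.08 (SE 0.16, adjusted p = 0.66), whereas Rpl5 fell by 0.51 (SE 0.13, adjusted p = 0.00137). Rps16, Rps13, Rps21, Rpl41, Rpl23a and Rps28 likewise gave no call, with estimates between -0.22 and -0.47.

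The effect of the Kat6a–/– genotype differed between the conditions for 14 members by the interaction term of the same fit. In all of them the log2 difference from Kat6a+/+ was higher in differentiating than in proliferating cells, and in 0 it was lower. Of all genes 6.36% were called higher and 7.58% lower. The 14 members were 9 large and 5 small subunit genes, and 74 of 77 core estimates were above 0, with a core median of 0.40 beside 0 over all genes. Rpl12 had the largest estimate (0.92, SE 0.24, adjusted p = 0.0126): its Kat6a–/– libraries read 26.9, 32.5, 34.2 and 18.7 CPM against 43, 44.5, 35.5 and 45.7 CPM in proliferating cells and 14.8, 10.8, 15.1 and 11.6 CPM against 11.6, 9.23, 11.4 and 10.3 CPM in differentiating cells. Rps2, at the entry of the mRNA channel, followed with 0.80 (SE 0.19, adjusted p = 0.00681): it read 298, 321, 349 and 210 CPM against 471, 472, 403 and 472 CPM in proliferating and 181, 161, 165 and 169 CPM against 145, 141, 145 and 179 CPM in differentiating cells. In proliferating cells the 2 genotypes did not overlap for either gene, and in differentiating cells they did. Single libraries moved the count of 14 to between 2, without proliferating Kat6a–/– replicate 4, and 24, without differentiating Kat6a–/– replicate 2. It was 3 without differentiating Kat6a–/– replicate 1 or 3, and 4 to 9 without proliferating Kat6a–/– replicate 1 or Kat6a+/+ replicate 1, 2, 3 or 4, without differentiating Kat6a+/+ replicate 1, 2, 3 or 4, or without proliferating Kat6a+/– replicate 1, 2 or 3 or differentiating Kat6a+/– replicate 2 or 4. It was 10 without litter 5063, 16 with edgeR and 4 with library totals.

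Reads of these short genes are hard to place, because the mouse genome holds many processed copies of them. Of all stretches of 50 bases in the coding sequence, a median of 91.3% per core gene (0% to 100%) also occurred elsewhere in GRCm39, and 68 of 77 core genes had at least 50% such stretches. Among variants the share was 48.3% for Rps27l, 82.6% for Rpl22l1, 81.4% for Rpl36al, 36% for Rpl32l and 21.9% for Rpl7l1. For their parents it was 100% for Rps27, 31% for Rpl22, 100% for Rpl36a, 61.2% for Rpl32 and 77.5% for Rpl7. The part of shared reads in the values of variants and parents was not tested. How reads with several matches were counted is not given in the sources used here. The 9 core genes with fewer than 50% (among them Rps3, Rpl8, Rpl4, Rpl22, Rpl13a, Rps9, Rps15 and Rps21) had a median level of 524 CPM per kilobase in proliferating Kat6a+/+ cells, the 68 others of 90.6 and the 30 with 100% of 31.7, and the part of the counting in these levels was not tested. The estimates for Kat6a–/– in proliferating cells had a median of -0.40 over those 9 genes, all below 0 and 6 of them called, -0.39 over the 68 and -0.29 over the 30. For differentiation of Kat6a+/+ cells these medians were -1.15, -1.02 and -0.83. Most genes named above for their change on differentiation had 100%: Rpl10, Rpl12, Rps27a, Rpl13, Rpl38, Rpl11, Rpl5, Rps16, Rps13, Rpl41, Rpl23a and Rps28. Rps21 had 46%. The part of read placement in the estimates of single genes was not tested.

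The files also list 13 annotated copies of members outside the naming rule, some above their parents. Rps6-ps4 stood at 759 CPM per kilobase in proliferating Kat6a+/+ cells, beside 49.2 for Rps6, Rpl14-ps1 at 578 beside 117 for Rpl14, and Rps27rt at 409 beside 18.6 for Rps27. By genotype Rps6-ps4 averaged 653, 599 and 446 CPM in Kat6a+/+, Kat6a+/– and Kat6a–/– proliferating cells and 185, 179 and 191 CPM in differentiating cells, and Rpl14-ps1 averaged 401, 373 and 303 CPM and then 118, 119 and 128 CPM. Of the 5 protein-coding copies that were tested, 1 fell in proliferating Kat6a–/– cells, Rpl34-ps1 by 0.46 (SE 0.14, adjusted p = 0.0229), and all 5 estimates were below 0. With the counts of copies added to their parents, an alternative chosen after seeing the data, 41 members fell and 0 rose and the core median was -0.41.

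**Figure D5:**
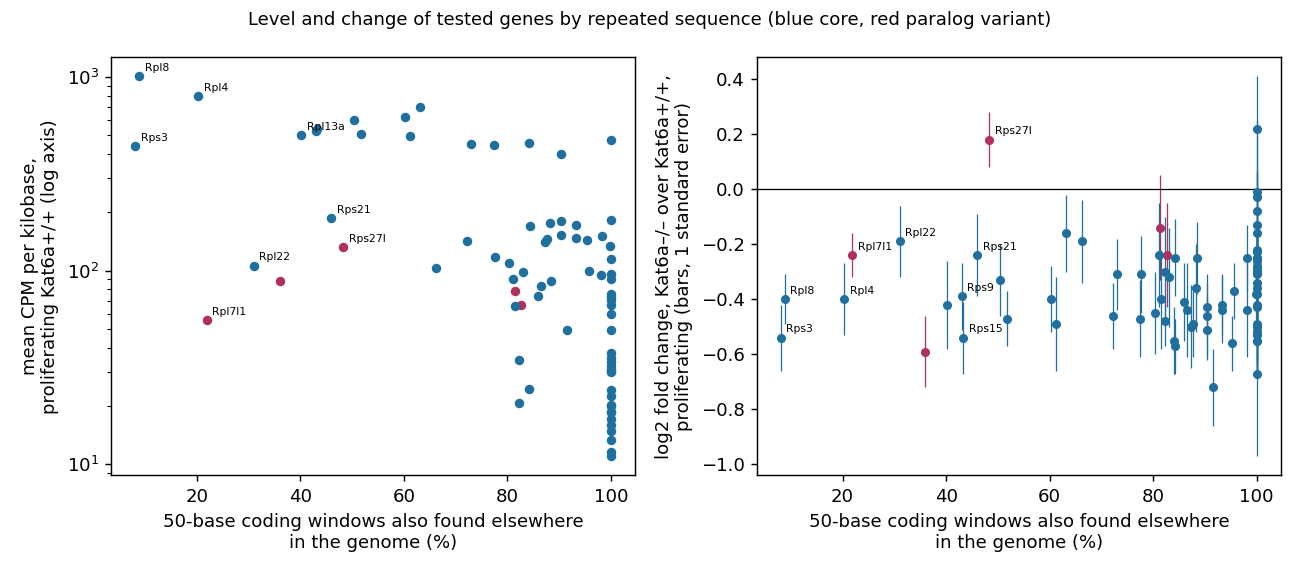
Left, the mean level of 79 tested members in proliferating Kat6a+/+ cells (CPM per kilobase, log axis) against the share of their 50-base coding stretches also found elsewhere in the genome; right, the log2 fold change of Kat6a–/– over Kat6a+/+ in proliferating cells against the same share, with bars of 1 standard error; blue is core and red is paralog variant. Of the core genes drawn, 8 lie under 50%, while the fold changes lie below 0 over the whole range except for Rps13 and Rps27l.

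The median change was close in core genes with and without a pyrimidine run at the RefSeq start. These starts are annotated and were not measured in these cells. Windows of the same gene can differ, with runs of 3, 13 and 0 bases for Rpl35a. The split therefore cannot sort the mRNAs by the TOP motif, and the part of the motif in the change was not tested. In proliferating Kat6a–/– cells the median estimate was -0.41 over the 26 core genes whose placed start window held a run of at least 5 pyrimidines and -0.40 over the 30 whose window did not. On differentiation of Kat6a+/+ cells the medians were -0.98 and -1.10.

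Other genes of the pathway were read from lists that do not overlap the members. Of the 3 ribosomal proteins with other names, Fau and Rack1 fell in proliferating Kat6a–/– cells, by 0.49 (SE 0.15, adjusted p = 0.0217) and 0.55 (SE 0.13, adjusted p = 0.00685). Of 17 translation factors and other genes with TOP mRNAs 11 fell and 0 rose, with a median of -0.31, where 13.8% of all genes fell and 16.2% rose. Among them were Eef1a1, which delivers aminoacyl-tRNA (-0.43, SE 0.11, adjusted p = 0.00862), Eef2, which moves the ribosome along (-0.42, SE 0.08, adjusted p = 0.00192), and Eif4b, a helper of the cap-binding helicase (-0.50, SE 0.12, adjusted p = 0.00801). Eif4b read 670, 696, 576 and 638 CPM in the Kat6a+/+ and 427, 470, 486 and 342 CPM in the Kat6a–/– libraries. In differentiating Kat6a–/– cells 3 of these 17 rose, Eef1a1, Eif3e and Tpt1, and 2 fell, Hnrnpa1 and Nap1l1, with a median of 0.08, where 26.7% of all genes rose and 27.7% fell. On differentiation of Kat6a+/+ cells all 17 fell, with a median of -0.95, where 36.2% of all genes fell. Of their interaction terms 7 were higher and 1 lower, where 6.36% of all genes were called higher and 7.58% lower. How far these calls depend on single libraries was not examined.

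Of 14 mTORC1 and cap-binding regulators, 1 rose and 2 fell in proliferating Kat6a–/– cells, with a median of -0.01. These counts are near or below the 16.2% of all genes that rose and the 13.8% that fell, so the genes named here are given for their own values. Eif4ebp1, an inhibitor of cap-binding that mTORC1 inactivates, read 42.2, 56.1, 30.1 and 48.5 CPM in the Kat6a+/+ and 16.6, 17.5, 20.6 and 15.2 CPM in the Kat6a–/– libraries and fell by 1.17 (SE 0.22, adjusted p = 0.00251), without overlap. Its relative Eif4ebp2 fell by 0.37 (SE 0.07, adjusted p = 0.00208), and Deptor, an inhibitory partner of mTOR, rose by 0.87 (SE 0.29, adjusted p = 0.0372). Mtor (-0.03, SE 0.08) and Larp1 (-0.24, SE 0.09, adjusted p = 0.0656) did not pass. In differentiating cells 5 of the list rose and 5 fell, where 26.7% and 27.7% of all genes did, and Eif4ebp1 was among those that rose, by 0.90 (SE 0.18, adjusted p = 0.00138), from 18.7, 26, 19.6 and 18.7 CPM to 51, 18.6, 37.3 and 24.9 CPM, again with replicates 1 and 3 on top.

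Of 11 genes of the MYC family and RNA polymerase I, which makes ribosomal RNA, 1 rose and 3 fell in proliferating Kat6a–/– cells. Mycn read 2.76, 3.79, 3.02 and 2.28 CPM in the Kat6a+/+ and 1.13, 0.644, 1.1 and 0.997 CPM in the Kat6a–/– libraries and fell by 1.51 (SE 0.31, adjusted p = 0.00351). Polr1c and Polr1b, subunits of the polymerase, fell by 0.49 (SE 0.1, adjusted p = 0.00261) and 0.35 (SE 0.12, adjusted p = 0.0453), and Ubtf, a polymerase cofactor, rose by 0.21 (SE 0.06, adjusted p = 0.0225). Myc read 221, 240, 151 and 213 CPM against 118, 157, 170 and 131 CPM, an estimate of -0.40 (SE 0.15, adjusted p = 0.0553) with overlap. In differentiating Kat6a–/– cells Mycn fell by 3.76 (SE 0.44, adjusted p = 2.89e-05), from 23.4, 5.08, 19.3 and 15.4 CPM to 1.31, 1.38, 1.02 and 3.16 CPM, and Mycl by 1.78 (SE 0.14, adjusted p = 3.15e-06), from 85.2, 49.9, 74.3 and 81.6 CPM to 21.3, 23.9, 22.5 and 22.2 CPM. Both were without overlap, and Myc gave 0.38 (SE 0.17, adjusted p = 0.0787). In proliferating cells 16.2% of all genes rose and 13.8% fell, and the 0 rises and 2 falls of this list in differentiating cells were below the 26.7% and 27.7% of all genes. On differentiation of Kat6a+/+ cells 7 of the list fell and 3 rose, where 36.2% and 36.7% of all genes did.

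Of 8 chaperones and maturation factors of ribosomal proteins, 0 rose and 1 fell in proliferating Kat6a–/– cells, where 16.2% of all genes rose and 13.8% fell. In differentiating ones 1 rose and 0 fell, where 26.7% and 27.7% of all genes did. These counts are near or below those shares. Eif6, which keeps the large subunit from joining early, fell by 0.29 in proliferating cells (SE 0.09, adjusted p = 0.0289). Nmd3, an export adaptor of the large subunit, rose by 0.23 in differentiating ones (SE 0.08, adjusted p = 0.0256). Of the 4 genes of the p53 branch, Trp53 fell in proliferating Kat6a–/– cells by 0.41 (SE 0.11, adjusted p = 0.0122), from 154, 142, 140 and 143 CPM to 115, 120, 107 and 77.9 CPM without overlap, and Cdkn1a (0.33, SE 0.17, adjusted p = 0.151) and Mdm2 (0.16, SE 0.1, adjusted p = 0.206) did not pass. In differentiating cells Mdm4, a partner of Mdm2, fell by 0.44 (SE 0.12, adjusted p = 0.00701) besides the rises of Cdkn1a and Mdm2. These 4 genes thus gave 0 rises and 1 fall in proliferating and 2 rises and 1 fall in differentiating cells, beside the same shares of all genes. The 78 mitochondrial ribosomal protein genes, which build the separate ribosome of mitochondria, had 2 rises and 6 falls with a median of -0.08 in proliferating Kat6a–/– cells, 3 rises and 22 falls with a median of -0.10 in differentiating ones, and 12 rises and 36 falls with a median of -0.16 on differentiation of Kat6a+/+ cells. The falls in proliferating cells were below the 13.8% of all genes and those in differentiating cells near the 27.7% of all genes, and on differentiation 36.2% of all genes fell and 36.7% rose.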

How the data were processed

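Of NSPC cultures 24 RNA libraries were sequenced, 4 for each genotype and condition, and 6 embryo labels occur in both conditions. The deposited files hold raw read counts per gene, made by the authors with featureCounts (Rsubread) on mm39, and per the labels bcl2fastq made the reads. Versions, the strand setting and the treatment of reads with several matches are not given in the sources used here. Overlapping and antisense genes may therefore share reads.

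The members and lists were chosen with earlier results of these data known. Genes that are not protein-coding, Xist and genes unique to Y were left out, low counts were removed with filterByExpr, and libraries were scaled by TMM (edgeR 4.0.16, R 4.3.3). This left 12276 genes in proliferating cells, 13339 in differentiating cells and 13590 over all libraries. Proliferating libraries were fitted with limma-voom (limma 3.58.1) with litter as a random block (correlation 0.287). For differentiating libraries limma-trend was used on log2 CPM (prior count 2) and library weights, and the 24 libraries together with limma-voom, genotype, condition, their interaction and litter (correlation 0.00365). Empirical Bayes was robust. Adjusted p values are by Benjamini-Hochberg over all genes tested (threshold 0.05), and within a condition they measure the spread between separate embryos. In the fit of both conditions 6 embryos gave a library to each. Printed CPM values use TMM factors over the 24 libraries. CPM per kilobase uses the gene length in the files. The scripts were tested on simulated data. The fits within a condition followed the pipelines stated for the study, which treated the conditions separately, and the fit of all libraries was added here. Alternatives included edgeR, DESeq2 1.42.0, other scalings, litter terms and leaving out each library.

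Genes named in the text were the variants with their parents, members with known roles, the 4 largest falls and 4 largest rises per condition among called core genes, the 2 largest interaction terms on each side and the core genes of the X chromosome as a count. Rps29, Rps13 and the members without a call on differentiation were named after their values were seen. Results for 3 members and 1 gene of another list are not reported here by name or drawn, and they stay in all fits and counts. Totals of 7826660 to 40838203 counts make counting error small beside the spread between replicates for members with many counts. It is not small for members with few counts. Examples are Rpl38, Rps13 and Rps28 at a few CPM, and Rpl36a with 68 to 84 counts in proliferating Kat6a–/– libraries.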

Additional observations from a re-analysis of the deposited data

Results flagged for a closer look

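In 7 of 222 groups of 4 libraries, of named genes and of shares of counts (3.15%), 1 library lay farther from the rest than Dixon's 95% critical value allows, where chance gives about 1 in 20. In proliferating cells these were Kat6a+/+ replicate 3 for Rpl13a (440 CPM) and Rps2 (403 CPM), both low, Kat6a+/+ replicate 4 for Rps27a (17.9 CPM, low) and Kat6a–/– replicate 4 for Rps10 (51.2 CPM, low). In differentiating cells they were Kat6a+/+ replicate 4 for Rplp2 (34.5 CPM) and Rps2 (179 CPM) and Kat6a–/– replicate 1 for Rps27 (10.2 CPM), all high.

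The effect of the Kat6a–/– genotype differed between the conditions by the interaction term of limma for 14 members, in log2 and with adjusted p under the threshold: Rps2 (0.80), Rpl12 (0.92), Rpl37 (0.76), Rpl13 (0.61), Rps7 (0.64), Rplp0 (0.69), Rpl18 (0.60), Rpl10 (0.77), Rpl7 (0.66), Rps3 (0.64), Rps23 (0.65), Rpl6 (0.54), Rpl4 (0.60) and Rps14 (0.62). In each the log2 difference of Kat6a–/– from Kat6a+/+ was higher in differentiating than in proliferating cells.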

How the results depend on the processing

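The 39 calls in proliferating Kat6a–/– against Kat6a+/+ cells ranged from 29 to 48 over 13 alternatives (35 with edgeR, 44 with DESeq2) and from 23 to 48 when single libraries were left out, all falls except for Rps27l, which rose without litter 5063 and with library weights. The 10 calls in differentiating cells became 0 with DESeq2, edgeR, litter as a fixed term or no library weights, 2 without the expression filter and 21 with library totals (19 lower), and 0 to 27 without single libraries; with edgeR 1635 of all genes still rose and 1609 fell, and in the limma fit 19 members had an unadjusted p under 0.05. Kat6a–/– against Kat6a+/– gave 30 calls in proliferating cells, 7 with edgeR or no litter term and 51 with litter fixed (1 to 47 without single libraries), and 9 in differentiating cells, 0 with DESeq2, edgeR, litter fixed or no weights, 1 without the filter and 3 with library totals (0 to 26). The 14 interaction calls became 9 with all gene types kept and 4 with library totals (2 to 24). Kat6a+/– against Kat6a+/+ gave 0 in proliferating cells throughout and 0 to 2 in differentiating cells. The condition gave 75 calls, 71 to 75 without single libraries. Core medians without single libraries ran from -0.47 to -0.30, -0.46 to -0.24 and -0.08 to 0.04 in the proliferating comparisons (null against wild type, null against heterozygous, heterozygous against wild type), -0.13 to 0.05, -0.03 to 0.23 and -0.20 to -0.01 in the differentiating ones, 0.20 to 0.48 for the interaction and -1.03 to -0.91 for the condition. In differentiating Kat6a–/– cells Rpl13a ranged from -0.02 (without Kat6a–/– replicate 1) to 0.35 and Rpl39 from -0.02 (without Kat6a–/– replicate 3) to 0.27, so both changed sign. Library totals moved the median of all genes to -0.17 and -0.12 for differentiating null against wild type and heterozygous, and to -0.15 for the interaction. The cause of these shifts was not tested. For fits without single libraries the shares of all genes called are not given here, so their counts show only how far the calls move. Replicate numbers do not pair the samples throughout (correlations of -0.507 to 0.567). The highest was that of proliferating Kat6a+/– and Kat6a–/– replicates 4, both of litter 5063. Proliferating Kat6a+/+ and Kat6a+/– replicates 3, both of litter 4633, gave -0.438. A replicate block gave 13 calls for null against heterozygous proliferating and 2 for differentiating cells. Against wild type it gave 41 and 9, and for the interaction 14.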
